A study of Mus musculus with 3 samples.

Results

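Broad shared TFAP2A peaks were the peaks of replicate 1 on chromosomes 1 to 19 that were at least 1000 bp wide and overlapped a peak of replicate 2 by 1 bp or more. There were 722 of them among 15797 shared peaks on these chromosomes, or 4.57%, and among 18528 peaks in the whole replicate 1 list. The members were chosen by their width in replicate 1 and by the overlap, so their replicate 1 widths are given as a description. The number, width and enrichment of the replicate 2 peaks under them, their location and their sequence were not used to choose them. They are compared below with the 15075 narrower shared peaks.

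TFAP2A was precipitated with the AP-2alpha 3B5 antibody from melan-a cells, an immortalised line of mouse melanocytes from normal embryonic skin with the genotype Cdkn2a tm1RDp/tm1RDp. The series held 3 samples, of which 2 were ChIP libraries from independent experiments (replicate 1 and replicate 2) and 1 was input chromatin, all from untreated cells of this same line and genotype. The culture medium contained a phorbol ester and cholera toxin, which support the growth of melanocytes in culture. A single cell line stood for melanocytes, and peaks do not measure expression, so its identity was not checked here with marker genes.

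TFAP2A belongs to the AP-2 family, whose members bind DNA as dimers at GC-rich palindromes. It acts in the neural crest, the embryonic cell population from which melanocytes arise, and in the differentiation of melanocytes themselves. A peak is a region where more ChIP fragments were found than the input predicts, its summit is the position of highest signal, and its fold enrichment is the height of that signal relative to background. A transcription factor bound at a single position usually gives a narrow peak, whereas a wide region can hold several bound positions or a very strong one.

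The TFAP2 consensus was searched as GCCNNNGG on both strands, with overlapping matches counted as 1 site. The 101 bases centred on the replicate 1 summit are shown for 3 of the widest members, to let the spacing of sites be seen, with every TFAP2 site in capitals (plus strand, mm9). They lie at chr7:12601021-12601121, chr4:3104033-3104133 and chr6:3089977-3090077, and each is named by the nearest protein-coding gene.
Vmn1r77: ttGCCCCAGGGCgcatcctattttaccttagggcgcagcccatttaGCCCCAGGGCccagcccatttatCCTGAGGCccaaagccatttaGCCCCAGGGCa
Vmn1r2: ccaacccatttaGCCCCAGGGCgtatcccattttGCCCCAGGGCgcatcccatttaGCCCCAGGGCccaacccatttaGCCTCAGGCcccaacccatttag
Samd9l: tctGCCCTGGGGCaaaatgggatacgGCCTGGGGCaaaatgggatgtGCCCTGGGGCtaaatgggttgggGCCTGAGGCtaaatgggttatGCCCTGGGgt
These windows hold 4, 4 and 5 sites. The capitals recur about every 22 bases, except after the first site of Vmn1r77, where a repeat copy without a site lies before the next. The third window carries the repeat on the opposite strand.

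The summit windows of members at genes of the pigment and neural crest lists are shown for contrast, at chr1:92814946-92815046, chr10:10275627-10275727, chr7:122768581-122768681 and chr8:125930239-125930339 (plus strand, mm9). Of the windows at the 5 widest such members, those of Mlph, Rab32 and Sox6 are printed because they held one of the other motifs searched, and those of Pax3 and Zeb2, which held neither these nor a TFAP2 site, are left out. The Mc1r window was added after its values were seen, because it is the only 1 of the 4 with a TFAP2 site. Capitals mark a TFAP2 site in Mc1r, the E-box CACGTG in Mlph, the M-box TCATGTG in Rab32 and the TEAD motif GGAATG in Sox6.
Mlph: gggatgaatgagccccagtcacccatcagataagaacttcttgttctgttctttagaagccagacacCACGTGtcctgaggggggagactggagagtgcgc
Rab32: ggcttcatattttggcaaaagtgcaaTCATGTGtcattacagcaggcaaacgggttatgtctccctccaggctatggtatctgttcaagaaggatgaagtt
Sox6: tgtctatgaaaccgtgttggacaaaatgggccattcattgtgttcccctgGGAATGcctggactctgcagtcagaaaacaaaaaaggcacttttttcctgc
Mc1r: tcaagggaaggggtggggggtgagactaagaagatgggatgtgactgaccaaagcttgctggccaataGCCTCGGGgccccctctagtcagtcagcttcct
The E-box lies 20 bp after the summit in Mlph, the M-box 21 bp before it in Rab32 and the TEAD motif 3 bp after it in Sox6. These are summits of replicate 1, and at Sox6 the replicate 2 summit lay 759 bp away. MITF, the main regulator of the melanocyte lineage, binds E-boxes and M-boxes. A match is a string in the sequence and was not tested for binding.

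Most members were only moderately wide. Their median width was 1156 bp (25th and 75th percentiles 1065 and 1330 bp), 476 of 722 measured under 1250 bp, 84 were at least 1500 bp and 17 were at least 2000 bp. The widest reached 7472 bp. The limit of 1000 bp cut a continuous range of widths, with 146 shared peaks at the limit or less than 50 bp over it and 197 up to 50 bp under it. Just inside it were a peak in an intron nearest to Arhgap31 with 4.40-fold enrichment in replicate 1 and 4.69-fold in replicate 2, and a peak in an intron nearest to Tanc1 with 11.2-fold and 11.1-fold. Of 3 shared peaks 1 bp under the limit, 2 were nearest to Igfbp7 (5.05-fold and 8.70-fold) and Tomm20 (5.02-fold and 4.95-fold).

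Every wide peak of replicate 1 was found again in replicate 2. All 722 of the 722 wide replicate 1 peaks overlapped a replicate 2 peak, as did 15075 of 17429 narrower ones, or 86.5%. Both values were used by the rule and a longer peak can meet another by its length alone, so these counts are a description. Intervals of shares are exact Clopper-Pearson intervals, which cover counting error over the peaks of 2 libraries and not variation between cultures. Summits lay within 100 bp of a replicate 2 summit in 94.3% of members (92.4 to 95.9%) and in 94.6% of narrower shared peaks (94.2 to 94.9%).

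The width of 1000 bp was reached less often in replicate 2. The widest replicate 2 peak under a member was also at least 1000 bp in 284 of 722 members, or 39.3% (35.8 to 43.0%), where 2.18% of all replicate 2 peaks that overlapped replicate 1 were that wide (348 of 15963). It had a median width of 928.5 bp, and the median ratio of replicate 2 to replicate 1 width was 0.797, against 0.895 in narrower shared peaks. Because members were chosen by a wide replicate 1 peak, a lower width in replicate 2 is partly fixed by that choice, and 655 of 722 were wider in replicate 1. Replicate 2 peaks covered a median of 81.6% of a member (25th and 75th percentiles 71.4 and 91.1%). Counted from replicate 2, 283 of its 348 shared wide peaks, or 81.3% (76.8 to 85.3%), overlapped a member. Across members the Spearman correlation of replicate 1 width with the widest replicate 2 width was 0.394, over 722 regions from the same pair of libraries, and it was 0.744 over all 15797 shared peaks, whose widths were not cut at 1000 bp.

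**Figure D1:**
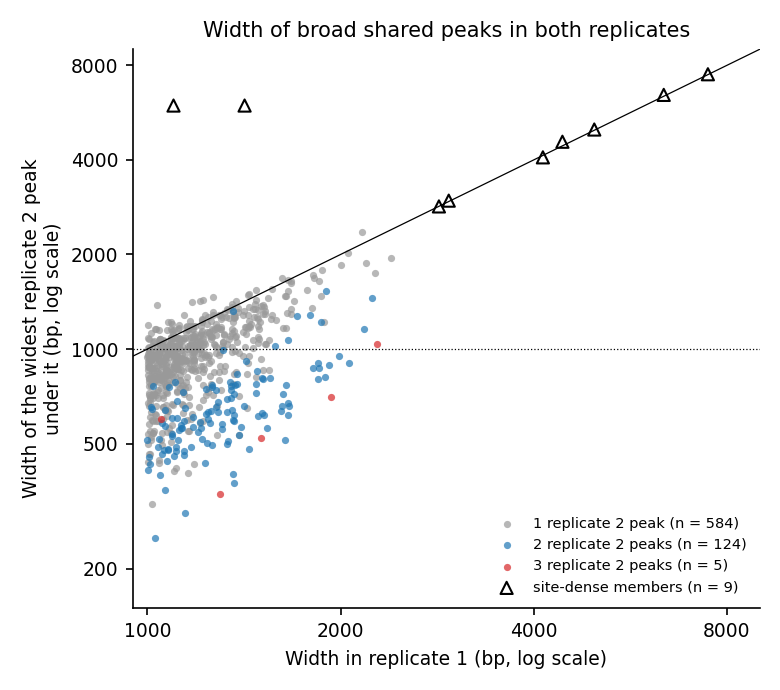
Width in replicate 1 (bp, log scale) against the width of the widest replicate 2 peak under it (bp, log scale) for each of the 722 members, coloured by the number of replicate 2 peaks, with equal widths as the solid line and 1000 bp as the dotted line. The 9 members packed with TFAP2 sites (triangles) hold the 7 largest replicate 1 widths, and most of the others lie under the line of equal widths.

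A single replicate 2 peak lay under 593 members (82.1%, 79.1 to 84.9%), 2 lay under 124 (17.2%, 14.5 to 20.1%) and 3 lay under 5. The 129 members over 2 or more made up 17.9% (15.1 to 20.9%), against 0.71% of narrower shared peaks (107 of 15075). No narrower peak lay over 3, which allows a share of up to 0.0199% when 3 counts are set against the total, the limit used below for every count of 0. A wider region can meet more peaks by its length alone, so this difference goes with width and was not tested apart from it.

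Under these 129 members lay 263 replicate 2 peaks, whose neighbouring summits were a median of 675 bp apart (25th and 75th percentiles 594 and 801 bp, 134 neighbouring pairs), with a median of 181.5 bp between neighbouring peaks. Of the 263, 143 had a TFAP2 site 50 bp or less from their own summit, or 54.4% (48.1 to 60.5%). In 42 members all replicate 2 peaks had such a site, in 58 some did and in 29 none did.

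The 5 members over 3 replicate 2 peaks were of mixed kinds. The region nearest to Gm22 (chromosome 8, 124747849 to 124750130) was 2282 bp wide, lay in an intron, held 14 TFAP2 sites and had 5.61-fold enrichment in replicate 1 and 5.34-fold in replicate 2. The region at Ctnnd1, which encodes p120-catenin of cell junctions, lay in an intron 3.03 kb after a start site, was 1931 bp wide and had 21.3-fold and 13.2-fold enrichment, yet it held 0 TFAP2 sites. The region nearest to Hexim2, an inhibitor of the elongation factor P-TEFb, was 1504 bp wide with 6.68-fold and 5.70-fold enrichment. The region nearest to Itgb3, which encodes integrin beta 3, lay in an intron, was 1296 bp wide with 4.83-fold and 5.58-fold enrichment, and the widest of its replicate 2 peaks measured 345 bp. The region 326 kb from Klf5, which encodes a Krüppel-like transcription factor, was 1050 bp wide with 12.7-fold and 13.2-fold enrichment. The sixth by this order was 2241 bp wide, lay over 2 replicate 2 peaks and was nearest to D630036H23Rik, with 15.5-fold and 13.8-fold enrichment.

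Broad regions were the more enriched ones in both replicates. Their median fold enrichment was 11.8 in replicate 1 (25th and 75th percentiles 8.18 and 17.5) and 11.2 in replicate 2 (8.04 and 16.0), against 5.77 and 6.27 in narrower shared peaks. Replicate 1 enrichment comes from the reads that also set replicate 1 width, whereas the replicate 2 values were not used by the rule. The replicate 2 value of a region is the highest among the replicate 2 peaks under it. This favours members, since 17.9% of them and 0.71% of narrower peaks lay over 2 or more. A replicate 2 peak across several regions gave its value to each. When shared peaks were split into 10 equal groups by replicate 2 enrichment, 2 of 1580 in the lowest group were broad in replicate 1 (0.127%, 0.0153 to 0.457%) and 276 of 1580 in the highest group were (17.5%, 15.6 to 19.4%). Within the members the Spearman correlation between replicate 1 width and replicate 2 enrichment was 0.0321, over 722 regions of the same libraries, against 0.501 over all 15797 shared peaks. The members span a narrower range of widths by the rule, which lowers such a correlation, so the pair of values is not a comparison. Enrichment itself went together between the replicates, with a Spearman correlation of 0.908 over the members.

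**Figure D2:**
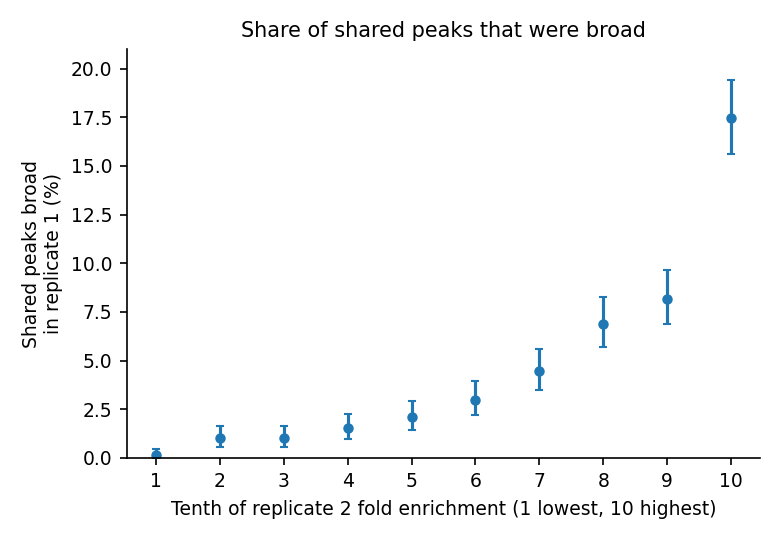
Percent of shared peaks that were broad in replicate 1 (y axis) in each of 10 equal groups by replicate 2 fold enrichment (x axis, 1 lowest), with exact 95% intervals as bars. The share goes from 0.127% in the lowest group to 17.5% in the highest.

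Of the 15 widest members, 7 were arrays of short repeats and 8 were not. The first 7, from 2846 to 7472 bp wide, had low enrichment, between 3.38-fold and 7.54-fold in replicate 1 and between 3.76-fold and 8.59-fold in replicate 2. Each lay over 1 replicate 2 peak of nearly the same width. The next 8, from 2064 to 2393 bp, had between 5.61-fold and 26.5-fold enrichment in replicate 1 and between 0.885 and 6.13 TFAP2 sites per kb, against 33.6 to 42.0 in the first 7.

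The widest member, on chromosome 18 from 3113294 to 3120765 and nearest to Vmn1r238, measured 7472 bp in replicate 1, and the replicate 2 peak over it measured 7493 bp, with 3.38-fold and 3.76-fold enrichment. The second, on chromosome 7 from 12596601 to 12602977 and 25.6 kb before Vmn1r77, was 6377 bp and 6441 bp wide with 4.46-fold and 4.36-fold enrichment. The third and the sixth lay close together on chromosome 4, from 3101703 to 3106672 and from 3107034 to 3109981, nearest to Vmn1r2 and Vmn1r3. Vmn1r genes encode vomeronasal receptors, which sense pheromones. Widths at this pair were 4970 and 2948 bp in replicate 1 and 4997 and 2967 bp in replicate 2, so the libraries gave nearly the same widths. The fifth and the seventh lay on chromosome 6 from 3087948 to 3092080 and from 3082662 to 3085507, 245 and 251 kb from Samd9l, an interferon-induced gene, with 5.37-fold and 3.82-fold enrichment in replicate 1 and 7.65-fold and 3.92-fold in replicate 2.

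The fourth widest member lay on chromosome 18 from 20783587 to 20788019, in an intron, with Ttr, which encodes the thyroid hormone carrier transthyretin, as the nearest protein-coding start site 36.9 kb away. Its width was 4433 bp by replicate 1 and 4569 bp by replicate 2, with 7.54-fold and 8.59-fold enrichment. A pair of further members of 1417 and 1098 bp stood beside it, and a single replicate 2 peak of 5957 bp ran across this pair and 4 narrower shared peaks. These regions are therefore not independent of each other.

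These 9 members stood apart from the other 713 in the number of TFAP2 sites, by a limit of 20 sites per kb that was set after the densities were seen. They held 33.6 to 42.0 sites per kb, and the next highest member held 10.2. All 9 repeated with a period of 22 bp, at which 71.5 to 87.5% of bases equalled the base 1 period further on. Of the other 713, none matched itself best at that shift with 60% or more of its bases, and 1 did so at another shift. In all they held 1333 of the 3990 TFAP2 sites in the members, 33.4% of the sites in 3.92% of the length. From 33.99 to 80.2% of their 32-base words occurred more than once in the assembly, against a median of 0% in all members. Of the 9, 5 began from 82.7 to 113 kb after the first assembled base of their chromosome. Outside the 9, the members most made of repeated words were those nearest to Snrpe (92.9% of words), Coro2a (86.6%) and Igkv1-115 (83.5%), singled out after their values were seen. The Snrpe member was 1653 bp wide, had 9.49-fold and 9.55-fold enrichment and held 0 TFAP2 sites. Reads from repeated sequence can be placed at more than 1 position, and the copy number in these cells may differ from the assembly. The part of either in these peaks was not tested.

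**Figure D3:**
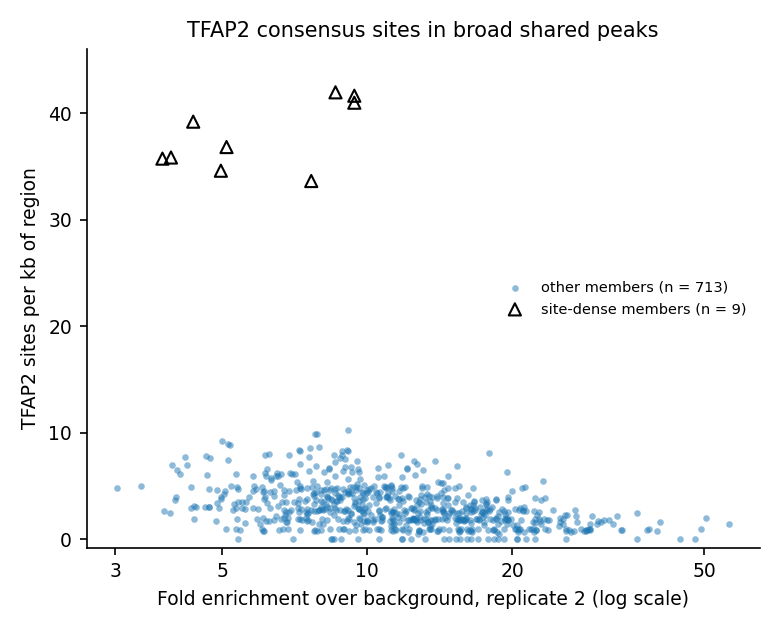
TFAP2 sites per kb of each member (y axis) against its fold enrichment in replicate 2 (x axis, log scale), with the 9 site-dense members as triangles and the other 713 as dots. The triangles lie between 33.6 and 42.0 sites per kb and at or under 9.40-fold enrichment, and the dots reach 10.2 sites per kb.

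Among the 8 others, the one at Mlph was the most enriched. Mlph encodes melanophilin, which links melanosomes to their motor, and the region (chromosome 1, 92813796 to 92815982) lay in an intron 3.33 kb after a start site. It was 2187 bp wide and had 26.5-fold enrichment in replicate 1 and 24.3-fold in replicate 2, over 1 replicate 2 peak of 1874 bp. It held 6 TFAP2 sites, at 482, 226 and 192 bp before the summit and 82, 443 and 766 bp after it, so the window printed above held none. The widest of the 8 lay in an intron 1.58 kb after the start of Scrn1 (chromosome 6, 54514563 to 54516955), with 2393 bp, 12.0-fold and 10.8-fold enrichment and 12 sites.

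The region at Gbp2, which encodes an interferon-induced GTPase, was in the promoter window 1.81 kb before the start site, with 2261 bp and 19.9-fold and 18.4-fold enrichment. The region nearest to Kctd1, whose product is known as a repressor of AP-2alpha, lay between genes 23.5 kb before its start site. It measured 2159 bp in replicate 1 and 2359 bp in the other replicate, and had 18.2-fold and 16.2-fold enrichment. The regions nearest to Lif, a cytokine gene (2175 bp, 11.1-fold and 7.11-fold), and to Fat4, an atypical cadherin gene (2064 bp, 10.4-fold and 7.94-fold), each lay over 2 replicate 2 peaks, the wider of which measured 1158 and 904 bp.

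The members lay mostly in introns and between genes. By the position of the summit, 292 (40.4%, 36.8 to 44.1%) were in introns, 248 (34.3%, 30.9 to 37.9%) between genes, 171 (23.7%, 20.6 to 27.0%) in promoters and 11 (1.52%, 0.763 to 2.71%) in exons. A promoter here runs from 5 kb before to 1 kb after any annotated start site. In narrower shared peaks the shares were 37.3% in introns, 31.9% between genes, 28.9% (28.2 to 29.7%) in promoters and 1.82% in exons. A start site lay inside 90 members (12.5%, 10.1 to 15.1%), against 9.42% (8.96 to 9.90%) of narrower peaks, which are shorter and can hold one less often by length alone. The median distance from summit to the nearest protein-coding start site was 16.7 kb in members and 14.7 kb in narrower peaks.

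The promoter share was also taken within groups of like enrichment. Replicate 1 enrichment comes from the reads that set replicate 1 width. Shared peaks were split into 4 equal groups by replicate 1 enrichment. In the highest group, 20.1% of members (16.7 to 23.9%, n = 507) and 17.2% of narrower peaks (16.0 to 18.5%, n = 3440) were in promoters. In the next groups down the shares were 28.3% (20.9 to 36.5%) against 23.0%, then 40.4% (27.6 to 54.2%) against 29.9%, and in the lowest group 35.0% of 20 members (15.4 to 59.2%) against 43.9%. The same split by replicate 2 enrichment, added after the data were seen, gave 17.0% against 16.7%, 35.1% (28.0 to 42.7%) against 23.6%, 36.4% against 31.3% and 36.0% against 42.6%. In the second highest of these the 95% intervals did not overlap, with the members above. So the pooled share in promoters was lower in members than in narrower peaks, and the share within each of the upper 3 groups was not, under either split.

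**Figure D4:**
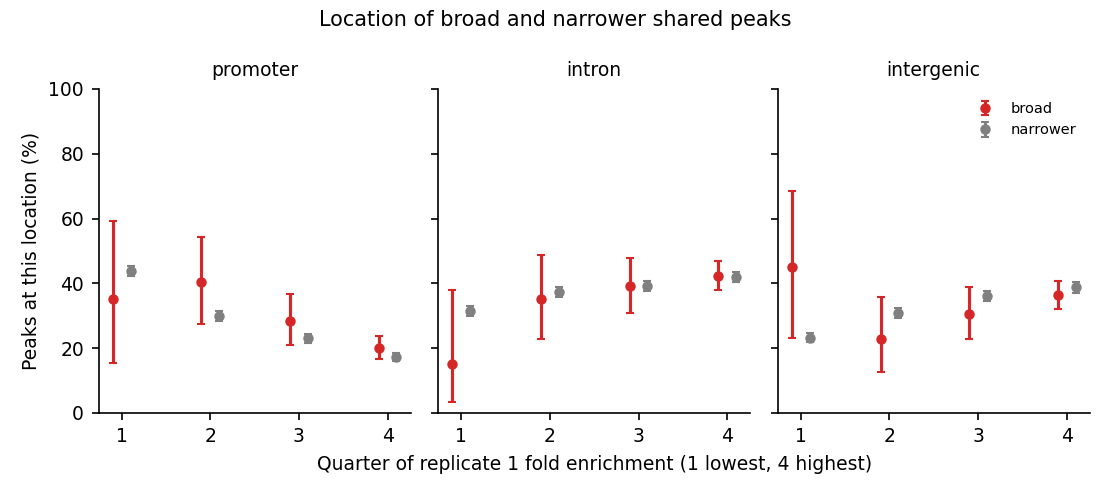
Percent of broad (red) and narrower (grey) shared peaks in promoters, introns and between genes (y axis) in each of 4 equal groups by replicate 1 fold enrichment (x axis, 1 lowest), with exact 95% intervals as bars. In the highest group 20.1% of broad and 17.2% of narrower peaks were in promoters, and the shares in introns were 42.4% and 41.9%.

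Members in promoters differed among themselves from the others in base composition. Their median GC content was 52.6% (25th and 75th percentiles 47.5 and 57.05%) and their CpG ratio, the observed over the expected number of CpG, was 0.311, against 46.3% and 0.210 in introns and 45.4% and 0.206 between genes. Their median enrichment in replicate 2 was 8.99, against 12.2 in introns and 12.2 between genes. Over all members the medians were 47.1% GC and a CpG ratio of 0.220, close to the 47.6% and 0.218 of narrower peaks, and 48 members (6.65%, 4.94 to 8.72%) had a CpG ratio of 0.6 or more, against 12.7% (12.1 to 13.2%) of narrower peaks. GC content and replicate 2 enrichment had a Spearman correlation of -0.625 over the members.

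Of 722 members, 463 or 64.1% (60.5 to 67.6%) had a TFAP2 site no more than 50 bp from the replicate 1 summit. Equally long windows whose centres lay 400 bp beyond each edge of the region held one in 14.3% on the left and 14.1% on the right. There were 387 members with a site at the summit and not on the left against 27 with the reverse, and 398 against 37 on the right (exact McNemar test, two-sided, larger p = 1.6e-77, n = 722 regions of 2 libraries, which are not replicates of the cells). Without the 9 site-dense members the share was 63.7% (60.02 to 67.2%). In narrower shared peaks it was 56.7% (55.9 to 57.5%) at the summit and 14.7% outside.

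Motifs of other factors were rarer at the summits. The TEAD motif was within 50 bp of the summit in 14.5% of members (12.1 to 17.3%) and in 5.33% of the outside windows, and in narrower peaks it was in 10.3% (9.81 to 10.8%) and 5.43%. The AP-1 motif (TGACTCA or TGAGTCA) was at 7.34% (5.55 to 9.49%) of member summits against 1.59% outside, and a SOX motif (ACAAAGG or ACAATGG) at 6.09% (4.46 to 8.10%) against 2.70%. The M-box was at 2.77% against 1.73% and the E-box at 1.11% against 1.39%. The control string CGGNNNCG, which no TFAP2 site requires, was at 3.88% (2.59 to 5.56%) against 1.94%, so this string was also 2 times as frequent at the summit. Its fixed bases are all G or C, like those of the TFAP2 site and unlike those of the TEAD, SOX and AP-1 motifs. It also fixes 2 CpG, which the TFAP2 site does not. So it is only a partial control for the TFAP2 site and no control for the others. The TEAD share was the only one of these 6 whose interval lay above that of narrower peaks, and the control string lay below it.

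The density of TFAP2 sites over whole regions depended on the repeat arrays. Over all members it was 4.39 sites per kb (exact Poisson 95% interval 4.25 to 4.52), against 1.98 (1.92 to 2.05) in stretches of the same length beside them. Narrower shared peaks held 3.57 (3.52 to 3.61) and 1.78 beside them. Without the 9 site-dense members the density was 3.04 (2.93 to 3.16) and 1.61 beside them. This lies below the 3.57 of narrower peaks, which still hold 21 peaks of 20 or more sites per kb. Narrower peaks also lie closer to their summits, where sites are densest. At 500 bp before and after the summit the members without the 9 held 2.33 and 2.50 sites per kb. Around narrower peaks without those 21 the values were 1.89 and 1.92, at a distance that lies outside most of these peaks. At 250 bp before and 200 bp after the summit the same members held fewer, 1.85 and 1.94 against 2.01 and 2.13. So neither set was denser at every distance. Of the members, 31 (4.29%, 2.94 to 6.04%) held no site at all, against 18.98% (18.4 to 19.6%) of narrower peaks, which are shorter. Site density went down with replicate 2 enrichment over the 722 members (Spearman correlation -0.446) and up with GC content (0.682). These were not separated. The share of members with a TFAP2 site at the summit changed little with enrichment. It was 68.0% (n = 25), 63.6%, 66.1% and 63.3% from the lowest to the highest of 4 groups by replicate 2 enrichment.

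**Figure D5:**
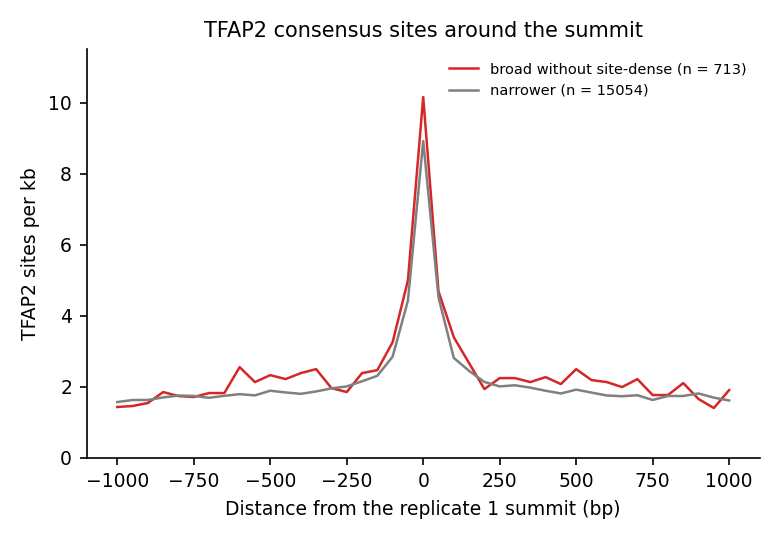
TFAP2 sites per kb (y axis) by distance from the replicate 1 summit (x axis, bp) in the 713 members that were not site-dense (red) and in narrower shared peaks under 20 sites per kb (grey), in steps of 50 bp. The density at the summit is 10.2 in the members and 8.92 in narrower peaks.

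Of the 10 members most enriched in replicate 2, 3 held no TFAP2 site. The strongest of these by replicate 2 lay between genes, 139 kb from the nearest protein-coding start site, that of Pax3, which encodes a transcription factor of the neural crest, on chromosome 1 from 78054317 to 78055477. It was 1161 bp wide, had 49.1-fold enrichment in replicate 1 and 47.9-fold in replicate 2, and held 0 TFAP2 sites. A second Pax3 member stood beside it, from 78056235 to 78057708 and 137 kb from the start site, with 27.3-fold and 27.0-fold enrichment and 4 sites. The other two, nearest to Has2, a hyaluronan synthase gene (64.6-fold and 44.5-fold, the highest of the 3 in replicate 1), and to Snx13 (40.2-fold and 36.4-fold), also lay between genes. These 3 were singled out after their values were seen.

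The 722 members had 637 nearest protein-coding genes, 2.97% of the 21418 on chromosomes 1 to 19. Of these, 565 were nearest to 1 member, 60 to 2, 11 to 3 and 1 to 4. The nearest gene is a label for a position, and regulation of that gene was not measured. The gene with 4 was Prickle1, which acts in planar cell polarity. Its members lay on chromosome 15 between 93360113 and 93624024, from 10.9 to 197 kb before start sites except for 1 that lay 26.8 kb after one. Their enrichment was 26.0, 10.1, 12.1 and 13.7-fold in replicate 1 and 20.4, 11.3, 14.3 and 14.7-fold in replicate 2, from the widest (1477 bp) to the narrowest (1034 bp).

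There were 11 genes with 3 members. Gli3, a transcription factor of the Hedgehog pathway, had members at 18.8, 21.8 and 41.3 kb before its start site, with 13.2 to 18.2-fold enrichment in replicate 1 and 13.5 to 15.5-fold in replicate 2. Dusp10, which encodes a phosphatase of stress-activated MAP kinases, had members of 1410, 1296 and 1259 bp, with 14.5 to 24.8-fold and 16.3 to 22.5-fold enrichment. Vgll4, which encodes a cofactor of TEAD factors, had members of 1353, 1096 and 1090 bp with lower enrichment, 6.27 to 9.93-fold and 4.92 to 8.04-fold, and 1 of them spanned 2 start sites. Lasp1, which encodes an actin-binding protein, had members at 4.04 and 5.86 kb before and 1.79 kb after start sites, with 9.99 to 17.5-fold and 10.6 to 16.7-fold enrichment.

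Col4a2, which encodes a chain of basement membrane collagen, had 3 members in introns of 1070 to 1139 bp, with 7.27 to 8.23-fold enrichment in replicate 1 and 7.21 to 9.86-fold in replicate 2. Arhgap15, a Rac regulator, also had 3 in introns, the most enriched at 33.8-fold and 28.5-fold. At Bcar3, an adaptor gene, the widest of 3 members measured 1293 bp with 7.87-fold enrichment in replicate 1 and 8.12-fold in replicate 2. At Gsdmc, a gasdermin gene, it ran from 12.3 to 20.4-fold and from 9.50 to 17.3-fold, at Fam198b from 8.63 to 21.3-fold and from 7.19 to 22.2-fold, and at Gm5423 from 15.3 to 21.99-fold and from 13.4 to 19.1-fold. The 3 members of Ttr were the repeat arrays described above.

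Of 23 pigment genes on these chromosomes, 5 were nearest to a member, and 5 of the 59 shared peaks nearest to the 23 were broad (8.47%, 2.81 to 18.7%, against 4.57% of all shared peaks). With a limit of 800 or 1500 bp 8 or 2 of the genes were nearest to a region, and of the neural crest factor genes below 10 or 1. Apart from Mlph these were Myo5a, Rab32, Mc1r and Ednrb. Myo5a encodes myosin Va, the melanosome motor, and its member lay in an intron 5.91 kb after a start site and was 1183 bp wide with 24.2-fold enrichment in replicate 1 and 22.4-fold in replicate 2. Rab32 acts in the transport of pigment enzymes, and its member lay in an intron 2.35 kb after a start site and was 1580 bp wide with 13.6-fold and 13.9-fold enrichment over 2 replicate 2 peaks. The Mc1r member (chromosome 8, 125929974 to 125931025) had its summit 0.693 kb before the start site of the melanocortin receptor gene, with 1052 bp, 7.47-fold and 9.10-fold enrichment and 6 sites, at 22 to 611 bp after the summit. The Ednrb member lay 47.6 kb before the endothelin receptor gene, with 1013 bp and 22.1-fold and 20.3-fold enrichment.

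Of 27 neural crest factor genes, 6 were nearest to a member, and 8 of their 135 shared peaks were broad (5.93%, 2.59 to 11.3%, an interval that holds the 4.57% of all shared peaks). Beside the Pax3 pair these were Mitf, Sox6, Zeb2, Snai1 and Id3. The Mitf member lay 55.1 kb after the nearest start site, outside the gene, with 1137 bp and 11.6-fold enrichment in replicate 1 and 12.8-fold in replicate 2, and its 4 sites were at 532 and 259 bp before and 334 and 347 bp after the summit. The Sox6 member was in an intron, 1619 bp wide, with 8.23-fold and 12.2-fold enrichment and summits 759 bp apart in the replicates. The Zeb2 member (1379 bp, 17.9-fold and 16.5-fold) was in the promoter window of a non-coding transcript, 240 kb from the protein-coding start site. Zeb2 and Snai1 encode repressors known from epithelial-mesenchymal transition, and the Snai1 member (1083 bp) had 4.41-fold and 4.04-fold enrichment. Id3, which encodes an inhibitor of basic helix-loop-helix factors, had members of 1114 and 1028 bp with 8.77-fold and 4.01-fold enrichment in replicate 1 and 7.88-fold and 4.64-fold in replicate 2.

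Other lists were described in the same way. For MAPK feedback genes 7 of 48 shared peaks were broad (14.6%, 6.07 to 27.8%), at Dusp4, Dusp6, Dusp7 and Dusp10, 4 of 15 genes. For AP-1 and TEAD/YAP genes 7 of 61 were (11.48%, 4.74 to 22.2%), at Lats2, Tead1, Tead4 and Vgll4, 4 of 19 genes. The Tead4 member was 1292 bp wide with 24.4-fold and 23.4-fold enrichment. For collagens, laminins and integrins 15 of 182 were broad (8.24%, 4.69 to 13.2%), at 12 of 83 genes, and the Lama2 member had 61.6-fold and 56.4-fold enrichment, the highest replicate 2 value of all members. For axon guidance genes 10 of 159 were (6.29%, 3.06 to 11.3%), at 8 of 68 genes. The share over all shared peaks was 4.57%. Peaks of 1 gene are not independent, since 3 of the 7 broad MAPK peaks were at Dusp10 and 3 of the 7 broad AP-1 and TEAD/YAP peaks at Vgll4, so these shares are a description.

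For cadherins and protocadherins 2 of 71 were broad (2.82%, 0.343 to 9.81%), at Cdh10 and Pcdh7, with 40.6-fold and 39.9-fold enrichment in replicate 2. No member was nearest to any of 44 Wnt pathway genes, where 0 of 56 shared peaks were broad, which allows a share of up to 5.36% by 3 counts of the total. Of 75 cytosolic ribosomal protein genes none was nearest to a member, with 0 of 22 shared peaks broad, which allows up to 13.6%. Of 1081 olfactory receptor genes 1 was, Olfr455, and 1 of their 25 shared peaks was broad (4%, 0.101 to 20.4%), close to the 4.57% of all shared peaks. By chromosome the share of shared peaks that were broad ran from 1.96% (0.946 to 3.58%) on chromosome 19 to 6.12% (4.64 to 7.89%) on chromosome 6.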

How the data were processed

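The authors deposited 1 peak list for each TFAP2A ChIP replicate. Their notes name BWA, MACS 1.4.2 and mm9 without roles. The lists hold summit and q columns in the narrowPeak layout, which that MACS version is not known to write, so the program behind widths, summits and enrichment is uncertain. Settings were not given in the sources used here. The deposited columns used were start, end, summit and fold enrichment. The deposited −log10 p reached down to 5.05 and 5.06, the −log10 q to 2.64, and the deposited score column, which follows −log10 p, was not used. Read depth is unknown, and the input was not analysed here.

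Peaks were shared when they overlapped by 1 bp. Genes came from GENCODE mouse vM1 and sequences from the mm9 assembly. A region was assigned to the nearest protein-coding start site of its summit. Scripts used Python 3.11.15, numpy 2.4.6, scipy 1.17.1, pandas 2.3.3, pysam 0.24.0, numba 0.67.0 and matplotlib 3.10.9, and were tested on simulated data. Genes named were those of the 15 widest members, the 6 over most replicate 2 peaks, genes with 3 or more members, pigment and neural crest genes, and members at the 1000 bp limit. Other genes named, such as Lama2, Tead4, Cdh10, Pcdh7, Has2, Snx13 and Snrpe, were members of lists or were singled out after their values were seen. Members and lists were chosen with earlier results of these data known. The split by replicate 2 enrichment and the removal of site-dense or repeated members were added after the data were seen.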

Additional observations from a re-analysis of the deposited data

Results flagged for a closer look

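Outside chromosomes 1 to 19, replicate 1 listed 6 peaks of 1000 bp or more, which the comparisons above did not use. All 6 lay on the X chromosome, all 6 overlapped a replicate 2 peak, and they measured 1022 to 1637 bp with 8.12 to 32.4-fold enrichment in replicate 1.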

How the results depend on the processing

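Of 173 values under 18 settings, 49 moved. A value moved if it left its 95% interval, changed by over 1.5 times (counts) or by more than the SD between replicates (enrichment). The other 124 include the tested summit share, counted by its direction and test alone. Only that share, under 12 settings, could be counted as reversed, and 0 of its values were. The share with a TFAP2 site at the summit ran from 23.7% (consensus GCCNNNGGC) to 77.0% (100 bp to each side of the summit) over 12 settings. The settings that kept GCCNNNGG and 50 bp to each side gave 61.9 to 65.5%. With a −log10 q of 5 or more all values stayed within these limits, the share over 2 or more replicate 2 peaks being 16.9%. With a width of 800 bp or more there were 1784 regions and 1411 genes, 10.2% lay over 2 or more replicate 2 peaks, 17.9% were also broad in replicate 2, sites per kb were 3.75 and median enrichment was 11.2 and 10.5. With 1500 bp or more there were 84 regions and 82 genes, with 39.3% over 2 or more, 67.9% also broad, 16.7% in promoters, 0% in exons, 46.4% between genes, 9.95 sites per kb (3.25 times the sequence beside them), 48.9% GC and a CpG ratio of 0.208. A reciprocal overlap of 50% gave 0% over 2 or more by its construction, 45.3% also broad, a site ratio of 2.36 and enrichment of 12.6 and 11.8. Members chosen by replicate 2 width numbered 348 at 320 genes, with 6.90% over 2 or more peaks of the other replicate, 99.1% coverage, 6.52 sites per kb, a site ratio of 2.52 and enrichment of 10.6 in replicate 1. Summing replicate 2 widths made 47.2% also broad. A promoter of 1 kb to each side gave 14.4% promoter, 45.01% intron and 38.4% intergenic, and protein-coding genes alone gave 20.4% promoter and 38.5% intergenic. The consensus GCCNNNGGC gave 0.983 sites per kb and a ratio of 2.92. Without the site-dense members there were 3.04 per kb and a ratio of 1.89, and without mostly repeated members 3.82 per kb. Leaving out each replicate in turn, with no overlap asked, gave 349 to 722 regions, 320 to 637 genes, 4.39 to 6.51 sites per kb and ratios of 2.21 to 2.52. Where no value above shows it, the cause was not tested. No paired analysis was possible because there is 1 group with peak lists. Depth is unknown, and its part in the lower replicate 2 widths was not tested.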

Other observations

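In a scan of the assembly for tracts of 20 or more TFAP2 sites per kb over 1 kb, made after the site-dense members were seen, 54 tracts were found. Of 10 with a best period of 22 bp or a multiple of it, 7 held a peak in both replicates and 6 held a broad shared peak. All 7 had a best period of 22 bp, and the 3 with a multiple (44, 176 and 264 bp) held none. A tract nearest to Arglu1 with a period of 11 bp was counted with the others. Of the other 44 tracts, 0 held a peak in both replicates, which allows a share of up to 6.82%. The densest of the 54, nearest to Pkig with 60 sites per kb and a period of 38 bp, was among these 44 and held a peak in replicate 2 alone, over 47.5% of its length. There were also 21 narrower shared peaks with 20 or more sites per kb, of which 12 lay within 10 kb of a site-dense broad peak.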
